A study of Mus musculus with 15 samples.

Results

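The genes described here encode the proteasome, the barrel-shaped protease that degrades ubiquitin-tagged proteins, together with its caps, activators and assembly factors. They were chosen by symbol: every gene with a probe set of 1 gene symbol that begins with Psm, followed by a letter from a to g and a number, with 1 probe set per gene, the one whose values varied most over the 15 arrays. The rule found 49 of the 18193 genes with 1 symbol on the array. Of these, 47 passed the filter that set aside probe sets following the array background, and 47 of the 49 encode subunits, regulators or assembly factors of the proteasome. Psmb11, a subunit made in the thymus, and Psmc3ip did not pass the filter and were not tested. Psmc3ip and Psme3ip1 match the pattern but encode proteins that interact with other partners or with an activator and are no subunits. Psme2, the partner of Psme1, shared its probe set with another symbol and was not a member. The 47 tested genes were among 12423 tested in all. They comprised 8 alpha subunits and 7 constitutive beta subunits of the 20S core, the 3 inducible beta subunits Psmb8, Psmb9 and Psmb10, 9 subunits of the base and 8 of the lid of the 19S cap, 3 chaperones of cap assembly, 4 chaperones of core assembly, 4 activators or inhibitors, and Psme3ip1.

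The 20S core is a stack of rings, with outer rings of alpha subunits that gate the entrance and inner rings of beta subunits, of which Psmb5, Psmb6 and Psmb7 carry the active sites. The 19S cap binds ubiquitin chains and removes them through its lid, and the ATPases of its base unfold the substrate and feed it into the core. Interferon-gamma induces Psmb8, Psmb9 and Psmb10, which replace Psmb5, Psmb6 and Psmb7 in newly built cores, the immunoproteasome, and induces Psme1, a subunit of an alternative activator ring. These forms are known for making peptides for MHC class I. When proteasomes cannot keep up, the transcription factor NRF1, encoded by Nfe2l1, is known to raise the genes of core and cap together.

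Primary hepatocytes of male C57BL/6 mice were measured on 15 arrays, with 3 independent biological replicates in each of 5 groups. Freshly isolated cells (t0) were the baseline. Cells in a tissue culture dish (TCD) grew as monolayers, and cells in a rotating wall vessel (RWV), a slowly turning cylinder that keeps cells afloat, grew as aggregates, each for 4 h or 24 h. No genotype was altered and no drug was given in any group per the labels, and the labels do not give the age of the mice. Every value is a log2 change from the median of the fresh arrays, so no level of a gene can be read, and levels cannot be compared between genes. For the same reason the absence of a marker of hepatocytes or of other cells could not be checked from levels. In bulk RNA a smaller share of cells that make a transcript and less transcript per cell cannot be told apart. Differences are given with the standard error of the limma fit over all 15 arrays (3 arrays a group), and a gene is said to have risen, fallen or been called where its p, adjusted after Benjamini-Hochberg over all 12423 genes, was under 0.05.

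The median of all probe sets lay between -0.077 and 0.077 on every array. On replicate 2 of TCD at 4 h the spiked hybridisation controls had a median of 1.08, against at most 0.18 elsewhere, and it had the lowest quality weight of all, 0.17. The same controls lay between -0.51 and -0.40 in TCD at 24 h and between -0.73 and -0.46 in RWV at 24 h, against -0.13 to 0.18 in fresh cells, and their part in the 24 h values was not tested. The 3' minus 5' difference of the Actb control probe sets ran from -0.45 to -0.43 in TCD at 24 h and from -0.26 to -0.22 in RWV at 24 h. In fresh cells it ran from -0.10 to 0, in TCD at 4 h from -0.23 to -0.19 and in RWV at 4 h from -0.30 to -0.20. Its part in the differences between vessels and against fresh cells was not tested. Centring every array on 7 reference genes moved the median of all genes from -0.01 to -1.22 for TCD at 24 h against fresh cells, from 0.01 to -0.73 for RWV at 24 h against fresh cells and from 0.00 to 0.47 for RWV against TCD at 24 h. The reference genes themselves had changed in culture: Polr2a rose by 2.05 ± 0.26 and Sdha fell by 1.38 ± 0.12 in TCD at 24 h (limma adjusted p = 1.91e-05 and 1.13e-06). Medians of gene groups are therefore also given relative to the median of all genes, which no centring moves, and the counts over all members, with the shares of all genes called, are given under both scalings.

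With the values as deposited most proteasome genes were higher after 24 h in culture than in fresh cells, while the 3 inducible subunits fell in TCD and 2 of them, Psmb8 and Psmb9, fell in RWV. In TCD at 24 h against fresh cells, 25 of the 47 members rose and 5 fell, where 32.8% of all genes tested rose and 23.4% fell. In RWV at 24 h, 31 members rose and 3 fell, where 30.7% of all genes rose and 19.2% fell. The member median was 0.39 in TCD and 0.54 in RWV, which was 0.40 and 0.52 above the median of all genes. With arrays centred on the reference genes the counts turned to 2 higher and 40 lower in TCD, where 11.2% of all genes were then higher and 68.9% lower, and to 6 higher and 17 lower in RWV (13.7% and 56.3% of all genes). So the direction of the core and cap genes against fresh cells depends on the scaling, and their position above the median of all genes does not. At 4 h the shift was not seen. In TCD at 4 h, 2 members rose and 8 fell (9.54% and 15.9% of all genes), and in RWV at 4 h, 5 rose and 8 fell (15.1% and 14.4% of all genes). With reference centring these became 0 and 26 in TCD (7.38% and 29.7% of all genes) and 0 and 33 in RWV (10.9% and 50.5%).

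**Figure D1:**
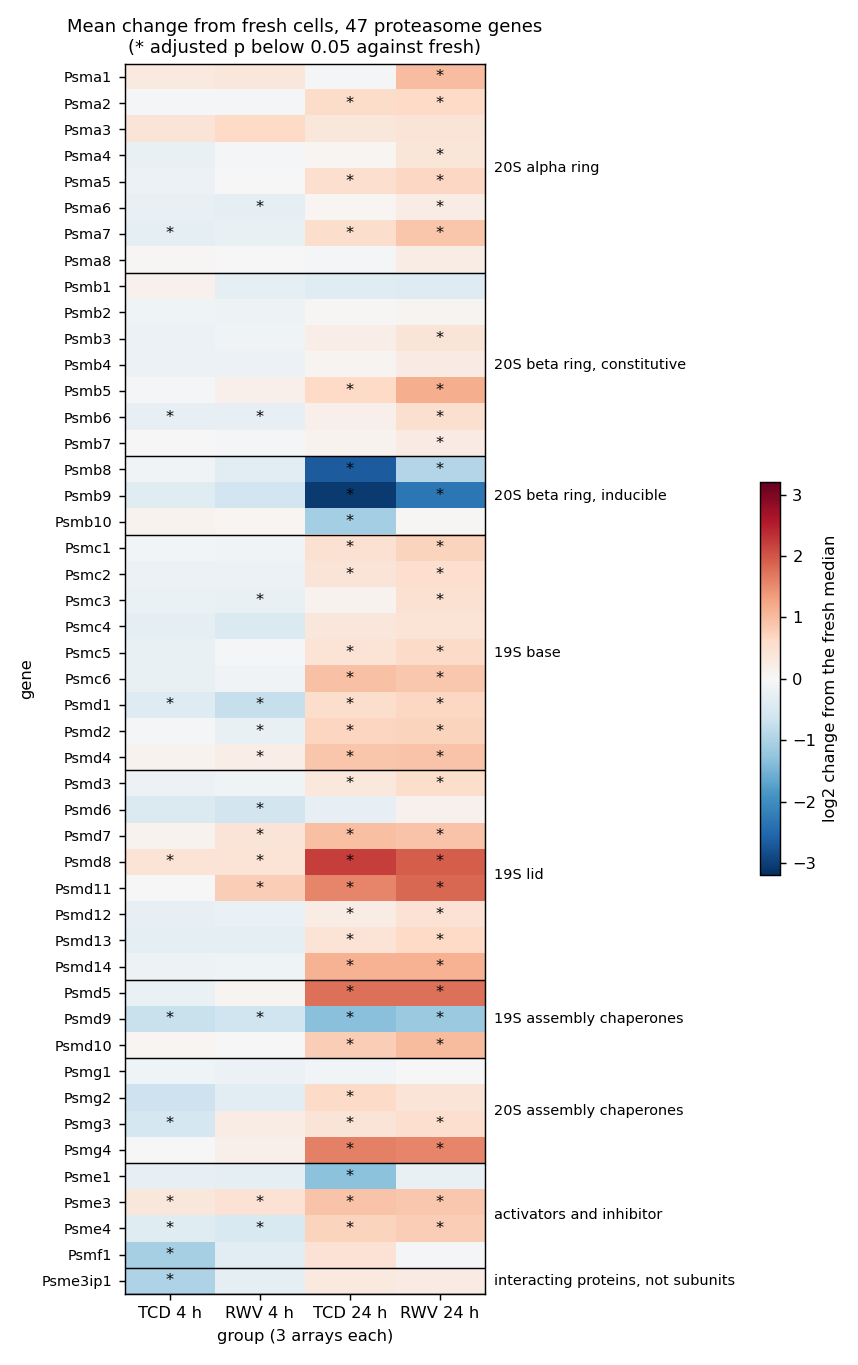
Mean log2 change from the fresh median (colour) of the 47 tested proteasome genes in the 4 cultured groups of 3 arrays each, ordered by class, with a star where the gene was called against fresh cells. Cap genes other than Psmd6 in TCD are red at 24 h in both vessels, and the 3 inducible beta subunits are blue in TCD, as deposited. Centred on reference genes, 40 members are lower than fresh cells in TCD at 24 h.

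The class medians per array separated cap, core and inducible subunits. The median over the 17 cap genes lay between 0.54 and 0.57 on the arrays of TCD at 24 h and between 0.65 and 0.69 on those of RWV at 24 h. The median over the 15 constitutive core genes lay lower, between 0.06 and 0.23 in TCD and between 0.34 and 0.50 in RWV. For the 3 inducible subunits it lay between -3.34 and -1.92 in TCD and between -1.20 and -0.67 in RWV. On each 24 h array this last median was the value of Psmb8, the middle of the 3, whose other probe set, described below, fell less. In each of these classes the arrays of RWV at 24 h lay above all arrays of TCD at 24 h.

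**Figure D2:**
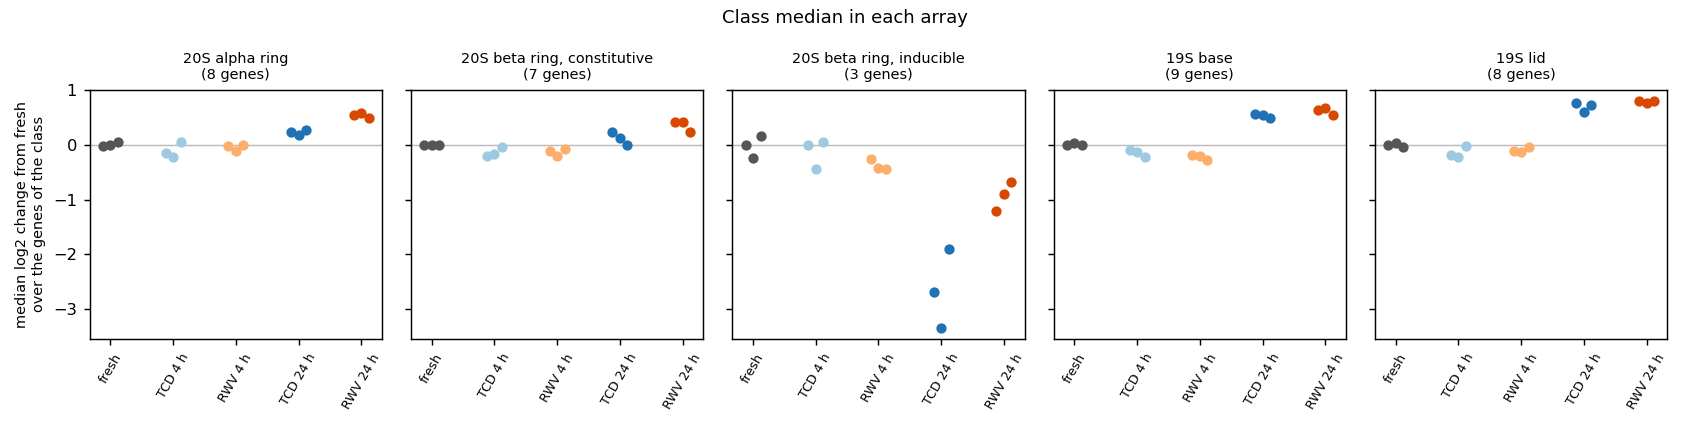
Median log2 change from fresh over the genes of a class (vertical axis) in each array (points), by group. The median of the inducible beta subunits, which is the value of Psmb8 on each 24 h array, reaches -3.34 in TCD at 24 h. The other probe set of Psmb8, not shown, fell less. Base and lid lie between 0.49 and 0.81 in both vessels at 24 h (values as deposited, which reference centring would lower).

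The alpha ring forms the gate of the core, and 6 of its 8 genes rose in RWV at 24 h against 3 in TCD, as deposited, where 30.7% and 32.8% of all genes rose. Directly between the vessels Psma1 alone of the 8 was called. With reference centring none of the 8 rose, all 8 fell in TCD and 3 fell in RWV, where 68.9% and 56.3% of all genes fell, and 7 were higher in RWV than in TCD. Psma2 had the largest mean change from fresh cells in this ring. It read 0.63, 0.53 and 0.57 in TCD at 24 h, 0.73, 0.63 and 0.58 in RWV at 24 h, and between -0.13 and 0.10 on the 9 other arrays. All 24 h arrays were above all others, and those of the vessels overlapped. It rose by 0.58 ± 0.08 in TCD and by 0.65 ± 0.08 in RWV (limma adjusted p = 7.63e-05 and 4.3e-05). Centred on reference genes the changes were -0.64 and -0.09. The other alpha genes lay between -0.05 and 0.53 against fresh cells in TCD and between 0.22 and 1.01 in RWV. Psma8, the alpha subunit of the testis, was at 0.76 on 1 array of RWV at 24 h and between -0.11 and 0.13 on the other 14. As deposited it was not called at 24 h against fresh cells or between the vessels. With reference centring it is in all the counts above, lower in TCD (-1.27) and RWV (-0.52) and higher in RWV than in TCD. Whether Psma8 passed the filter only through that 1 array was not tested.

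Among the 7 constitutive beta subunits only Psmb5, with the chymotrypsin-like active site, rose in both vessels at 24 h with the values as deposited. It read 0.74, 0.63 and 0.57 in TCD, 1.13, 1.24 and 1.15 in RWV and between -0.16 and 0.21 in the other groups. The 3 RWV arrays lay above the 3 TCD arrays, and these above all others. The rise was 0.63 ± 0.08 in TCD (1.55-fold) and 1.16 ± 0.08 in RWV (2.23-fold; limma adjusted p = 2.99e-05 and 2.81e-07), and with reference centring the TCD value was -0.58. Psmb6, with the caspase-like site, read 0.26, 0.12 and 0.09 in TCD at 24 h and 0.50, 0.61 and 0.46 in RWV. Here too the vessels did not overlap, and Psmb6 rose in RWV by 0.54 ± 0.08 but was not called in TCD (0.17 ± 0.08, limma adjusted p = 0.000149 and 0.0967). Both values turned under reference centring, to -0.21 and -1.04. Psmb7, with the trypsin-like site, read 0.23, 0.03 and 0.06 in TCD at 24 h and 0.29, 0.25 and 0.24 in RWV. It rose by 0.25 ± 0.08 in RWV (limma adjusted p = 0.0154), with 0.10 ± 0.08 in TCD, and by reference centring these were -0.49 and -1.12. Of the structural beta subunits, Psmb3 rose in RWV (0.39 ± 0.12), while Psmb1, Psmb2 and Psmb4 were not called in either vessel, as deposited. With reference centring Psmb3 was called lower in TCD (-1.02) and RWV (-0.35). Psmb1 (-1.65 and -1.21), Psmb2 (-1.14 and -0.63) and Psmb4 (-1.23 and -0.58) were then lower in both as well.

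The 19S cap carried the most calls. Of its 17 genes 14 rose in TCD at 24 h and 15 in RWV, and none fell in either, as deposited. Psmc6 is counted among those that rose, but its other probe sets, described below, were called lower in TCD, so its direction is uncertain. Over all genes 32.8% rose and 23.4% fell in TCD, and 30.7% rose and 19.2% fell in RWV. The median of the cap lay 0.58 and 0.68 above that of all genes. With reference centring 1 cap gene rose and 13 fell in TCD (11.2% and 68.9% of all genes), and 3 rose and 1 fell in RWV (13.7% and 56.3%). In the base, which holds the ATPases Psmc1 to Psmc6, the scaffolds Psmd1 and Psmd2 and the ubiquitin receptor Psmd4, 7 of 9 genes rose in TCD and 8 of 9 in RWV, or 0 in each with reference centring, when 8 fell in TCD and 0 in RWV. Psmd4, a ubiquitin receptor, read 0.93, 0.87 and 0.83 in TCD at 24 h, 0.97, 0.85 and 0.88 in RWV, 0.11, 0.02 and 0.17 in TCD at 4 h, 0.32, 0.22 and 0.09 in RWV at 4 h and 0.00, 0.04 and -0.24 in fresh cells. The 24 h arrays stood apart from the rest and the vessels overlapped. It rose by 0.94 ± 0.10 in TCD and 0.97 ± 0.10 in RWV (limma adjusted p = 3.36e-06 and 4.25e-06), and with reference centring the changes were -0.27 and 0.23. Psmc3, an ATPase, read 0.20, 0.01 and 0.11 in TCD at 24 h and 0.47, 0.56 and 0.45 in RWV, without overlap, and rose from fresh cells in RWV only (0.49 ± 0.09, adjusted p = 0.000403; TCD 0.10 ± 0.09, adjusted p = 0.336, limma). With reference centring Psmc3 was not called in RWV (-0.25 ± 0.12) and fell in TCD (-1.11 ± 0.12; limma adjusted p = 0.0774 and 1.56e-06).

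The lid, whose Psmd14 cuts ubiquitin chains off the substrate, had 7 of 8 genes higher in each vessel at 24 h, all but Psmd6, as deposited. Over all genes 32.8% were higher in TCD and 30.7% in RWV. With reference centring 1 lid gene rose and 5 fell in TCD (11.2% and 68.9% of all genes), and 3 rose and 1 fell in RWV (13.7% and 56.3%). Psmd8, a structural subunit of the lid, had the largest rise of all members. It read 0.00, 0.12 and -0.04 in fresh cells, 0.43, 0.37 and 0.55 in TCD at 4 h, 0.45, 0.37 and 0.50 in RWV at 4 h, 2.26, 2.21 and 2.20 in TCD at 24 h and 1.98, 1.91 and 1.92 in RWV at 24 h. The steps between fresh, 4 h and 24 h did not overlap, and at 24 h every TCD array was above every RWV array. Psmd8 rose by 2.19 ± 0.08 in TCD (4.58-fold) and by 1.91 ± 0.08 in RWV (3.76-fold; limma adjusted p = 8.46e-10 and 3.92e-09). It stayed higher with reference centring in both, by less (0.98 in TCD and 1.17 in RWV). Psmd11, another structural subunit, rose by 1.55 ± 0.26 and 1.82 ± 0.26, and Psmd14 by 1.09 ± 0.11 and 1.11 ± 0.11, in TCD and RWV. Under reference centring both rose in RWV (1.08 and 0.36) and neither was called in TCD (0.34 and -0.13). Other probe sets of Psmd11, described below, gave smaller rises or no call in TCD, so the size of its rise is uncertain.

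Assembly chaperones moved in both directions. Psmd5, which holds base subunits until the cap is complete, had the largest mean change among them and read 1.85, 1.62 and 1.79 in TCD at 24 h, 1.77, 1.67 and 1.83 in RWV at 24 h, and between -0.42 and 0.42 on the other arrays. The vessels overlapped, and Psmd5 rose by 1.61 ± 0.14 and 1.62 ± 0.14 (limma adjusted p = 6.75e-07 and 1.05e-06). The rise was still called but smaller under reference centring, 0.40 in TCD and 0.88 in RWV. Psmd9, a chaperone of the same step, fell by 1.31 ± 0.12 in TCD and by 1.17 ± 0.12 in RWV at 24 h, and had already fallen by 0.70 ± 0.12 and 0.62 ± 0.12 at 4 h. Psmd10, the third of these, rose in both as deposited, and with reference centring fell in TCD (-0.48) and was not called in RWV (0.21). Of the chaperones of core assembly, Psmg4 rose by 1.54 ± 0.17 in TCD and 1.51 ± 0.17 in RWV, Psmg3 rose in both, Psmg2 rose in TCD, and Psmg1 was not called. With reference centring Psmg4 was higher in RWV (0.77) and not called in TCD (0.33), and Psmg1, Psmg2 and Psmg3 fell in TCD (-1.30, -0.56 and -0.81), of which Psmg1 also fell in RWV (-0.75).

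Among the activators, Psme3, a ring that opens nuclear proteasomes, read 0.91, 0.83 and 1.01 in TCD at 24 h and 1.05, 0.65 and 0.92 in RWV. These overlapped, and the rises were 1.004 ± 0.15 and 0.96 ± 0.15 (limma adjusted p = 6.9e-05 and 0.000133), which reference centring turned to -0.21 in TCD and lowered to 0.22 in RWV. Psme4, a large single-chain activator, rose by 0.78 ± 0.10 and 0.84 ± 0.10 as deposited, while with reference centring it fell in TCD (-0.43 ± 0.12) and was not called in RWV (0.10 ± 0.12). Psmf1, an inhibitor of the core, read -0.60, -1.42 and -1.14 in TCD at 4 h, -0.37, -0.57 and -0.15 in RWV at 4 h, 0.45, 0.21 and 0.71 in TCD at 24 h and -0.14, -0.06 and 0.12 in RWV at 24 h, against 0.54, 0.00 and -0.34 in fresh cells. As deposited its order between vessels was opposite at the 4 h and 24 h time points, with no call between the vessels at either time. With reference centring it was lower than fresh cells at 24 h by similar amounts, at -0.82 in TCD and -0.84 in RWV. It fell in TCD at 4 h by 1.12 ± 0.24 (limma adjusted p = 0.00476).

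All 3 inducible subunits fell in TCD at 24 h against fresh cells, and Psmb8 and Psmb9 fell in RWV, as deposited. With reference centring all 3 fell in both vessels. Psmb8 lies at chr17:34198195-34201454 and Psmb9 at chr17:34182030-34187330 (GRCm38.p6), close to each other in the MHC region. To show what the inducible genes and the constitutive Psmb5 carry at their starts, the 250 bases before the RefSeq start are printed for the 3 inducible subunits, for Psme1 and for Psmb5. Capitals mark every match, on either strand, of the antioxidant response element core TGACNNNGC, the interferon-stimulated response element core GAAANNGAA, the gamma-activated site TTCNNNGAA or the ETS site core CCGGAAG, and no matches overlapped in these windows. The windows are chr17:34197945-34198194, plus strand, for Psmb8, chr17:34187331-34187580, minus strand, for Psmb9, chr8:105938393-105938642, minus strand, for Psmb10, chr14:55578244-55578493, plus strand, for Psme1 and chr14:54617996-54618245, minus strand, for Psmb5.
Psmb8: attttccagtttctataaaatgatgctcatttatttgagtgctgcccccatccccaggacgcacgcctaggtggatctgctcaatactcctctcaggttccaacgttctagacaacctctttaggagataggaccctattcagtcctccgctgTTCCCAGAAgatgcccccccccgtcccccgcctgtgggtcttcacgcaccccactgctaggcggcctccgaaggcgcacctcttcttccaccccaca
Psmb9: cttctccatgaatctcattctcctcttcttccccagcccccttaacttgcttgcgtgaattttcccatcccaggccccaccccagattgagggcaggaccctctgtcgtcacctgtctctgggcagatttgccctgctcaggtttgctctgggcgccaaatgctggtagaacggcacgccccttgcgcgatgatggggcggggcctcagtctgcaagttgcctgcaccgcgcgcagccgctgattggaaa
Psmb10: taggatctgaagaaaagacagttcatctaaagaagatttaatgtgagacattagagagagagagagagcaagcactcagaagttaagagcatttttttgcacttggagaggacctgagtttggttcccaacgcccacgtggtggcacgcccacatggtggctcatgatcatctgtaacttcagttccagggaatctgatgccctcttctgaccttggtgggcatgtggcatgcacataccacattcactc
Psme1: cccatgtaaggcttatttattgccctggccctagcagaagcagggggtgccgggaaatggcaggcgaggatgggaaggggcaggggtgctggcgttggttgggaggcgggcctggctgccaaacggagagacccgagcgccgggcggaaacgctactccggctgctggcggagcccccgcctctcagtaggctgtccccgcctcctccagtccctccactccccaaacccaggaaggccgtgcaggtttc
Psmb5: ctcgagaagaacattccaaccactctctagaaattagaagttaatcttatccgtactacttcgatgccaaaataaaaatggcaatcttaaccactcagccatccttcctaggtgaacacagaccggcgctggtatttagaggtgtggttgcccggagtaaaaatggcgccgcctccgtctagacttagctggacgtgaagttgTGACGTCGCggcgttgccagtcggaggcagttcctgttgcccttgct
Psmb8 held a gamma-activated site 97 bases before its start. Psmb5 held an antioxidant response element core 47 bases before its start, and Psmb9, Psmb10 and Psme1 held none of these letters in the window. Of the 49 members 41 were in the RefSeq table of GRCm38.p6, with 44 windows. The antioxidant core was found in 5 of the 44 (11.4%) and in 10.2% of all 32851 windows, and the gamma-activated site in 2 (4.55%) and 7.02%. The interferon-stimulated core was found in 3 (6.82%) and 7.13%, and the ETS core in 14 (31.8%) and 6.91%. The 14 windows with the ETS core included those of the cap genes Psmd4, Psmd6, Psmd11, Psmd12, Psmc1, Psmc2, Psmc6 and Psmd2, and none of the 3 inducible subunits. A match is a description of letters and no evidence of binding.

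Psmb8, which replaces Psmb5, read 0.13, -0.14 and 0.00 in fresh cells, 0.05, -0.44 and 0.05 in TCD at 4 h and -0.25, -0.42 and -0.44 in RWV at 4 h. At 24 h it read -2.70, -3.34 and -1.92 in TCD and -1.20, -0.90 and -0.67 in RWV. All 24 h arrays lay below all others, and each RWV array lay above each TCD array. Psmb8 fell by 2.65 ± 0.29 in TCD (6.27-fold lower) and by 0.92 ± 0.29 in RWV (1.89-fold lower; limma adjusted p = 5.5e-06 and 0.0171). The call in RWV was lost without replicate 1 of RWV at 24 h (adjusted p = 0.0688) or without replicate 1 of fresh cells (adjusted p = 0.0538, limma). The other probe set of Psmb8, described below, fell less in both vessels, so the size of the fall is uncertain.

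Psmb9, which replaces Psmb6, read 0.00, -0.91 and 0.17 in fresh cells, -0.33, -0.91 and 0.05 in TCD at 4 h, -0.44, -0.78 and -0.60 in RWV at 4 h, -3.19, -3.40 and -2.63 in TCD at 24 h and -2.53, -1.99 and -2.38 in RWV at 24 h. All 24 h arrays lay below all others, and the RWV arrays lay just above the TCD arrays. Psmb9 fell by 2.83 ± 0.31 in TCD (7.10-fold lower) and by 2.05 ± 0.31 in RWV (4.15-fold lower; limma adjusted p = 6.48e-06 and 0.000133). Psmb10, which replaces Psmb7, read 0.00, -0.24 and 0.19 in fresh cells, -1.11, -1.33 and -0.80 in TCD at 24 h and -0.35, 0.19 and 0.30 in RWV at 24 h. The TCD arrays lay below all others and the RWV arrays overlapped the fresh ones. It fell by 1.07 ± 0.25 in TCD (2.09-fold lower, limma adjusted p = 0.00246) and differed by 0.06 ± 0.25 in RWV. With reference centring it was called lower in RWV too, at -0.68 (limma adjusted p = 0.0335). Psme1 read 0.00, -0.12 and 0.12 in fresh cells, -1.24, -1.64 and -1.02 in TCD at 24 h and -0.39, -0.22 and -0.12 in RWV at 24 h. It fell in TCD by 1.30 ± 0.17 (limma adjusted p = 3.57e-05) and was not called in RWV (-0.24 ± 0.17), as deposited. With reference centring Psme1 was called lower in RWV too (-0.98 ± 0.19, limma adjusted p = 0.000524).

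Set against the constitutive subunit that each replaces, array by array, the inducible subunits had lost ground in every 24 h array of Psmb8 and Psmb9, and of Psmb10 in TCD. The difference of changes, Psmb8 minus Psmb5, was -3.30 ± 0.76 (SD, n = 3) in TCD and -2.10 ± 0.26 in RWV at 24 h, with -0.02 ± 0.16 in fresh cells. At 4 h it was -0.08 ± 0.18 in TCD and -0.53 ± 0.07 in RWV, without overlap and in the opposite vessel order. At 24 h Psmb9 minus Psmb6 was -3.23 ± 0.44 in TCD and -2.82 ± 0.21 in RWV, and Psmb10 minus Psmb7 was -1.19 ± 0.28 and -0.21 ± 0.37. In fresh cells these were -0.23 ± 0.59 and -0.03 ± 0.24. The ranges in TCD and RWV at 24 h did not overlap for the first and the last pair, and overlapped for Psmb9 and Psmb6. The Psmb8 values come from the probe set with the largest spread. The other probe set of Psmb8, described below, fell less and barely differed between the vessels. The size and the vessel order of the first pair are therefore uncertain. These differences are free of the scaling of the array but not of the choice of probe set.

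**Figure D3:**
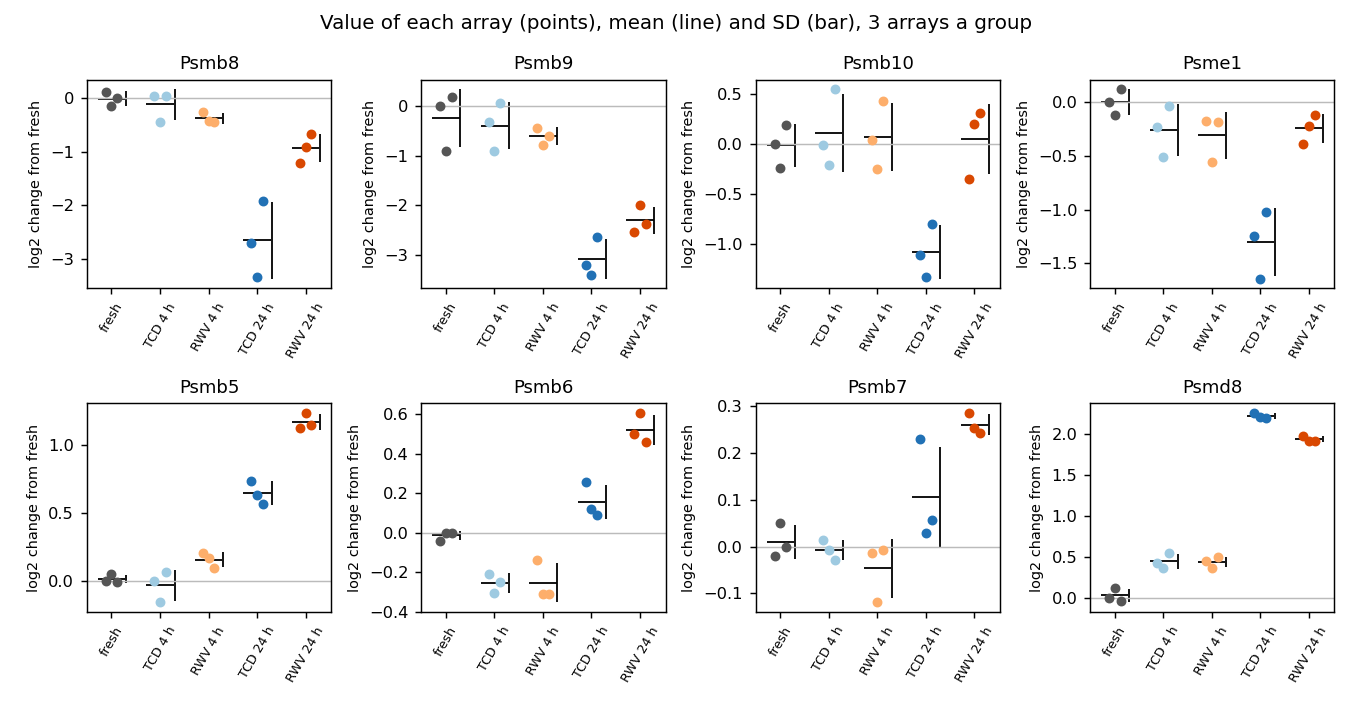
Log2 change from fresh (vertical axis) of the inducible subunits Psmb8, Psmb9 and Psmb10, the activator subunit Psme1, their constitutive counterparts Psmb5, Psmb6 and Psmb7 and the lid subunit Psmd8. Points are arrays, lines group means and bars the SD of 3 arrays. In TCD at 24 h the upper 4 genes lie lowest, with Psmb8 between -3.34 and -1.92, and Psmd8 is the only one of the 8 that is lower in RWV than in TCD at 24 h, an order that reference centring turns (0.19). The other probe set of Psmb8, not shown, fell less.

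Directly between the vessels at 24 h, 7 members were higher in RWV and 1 was lower, where 8.36% of all genes tested were higher and 6.86% lower. The 7 were Psmb8, Psmb10, Psme1, Psma1, Psmb5, Psmc3 and Psmb6, and Psmd8 was lower. The member median was 0.14 above that of all genes, with 38 of 47 differences above 0. With reference centring 40 members were higher and 0 lower, where 48.9% of all genes were higher and 3.32% lower. By class, as deposited, 3 of 15 constitutive core genes were higher (median 0.19 above all genes), 2 of 3 inducible subunits (1.13 above) and 1 of 17 cap genes, with 1 lower (0.14 above). With reference centring 13 of 15, 3 of 3 and 15 of 17 were higher and none of these was lower.

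Psmb8 was 1.73 ± 0.29 higher in RWV (3.31-fold, limma adjusted p = 0.00144), Psmb10 1.13 ± 0.25 higher (2.19-fold, adjusted p = 0.0081) and Psme1 1.06 ± 0.17 higher (2.08-fold, adjusted p = 0.0014). The other probe set of Psmb8, described below, barely differed between the vessels, so the Psmb8 difference is uncertain. Psmb9 was 0.77 ± 0.31 higher without reaching the threshold (limma adjusted p = 0.126), although its 3 RWV arrays lay above its 3 TCD arrays. With array quality weights it did (0.75, adjusted p = 0.0346). Psmb5 was 0.52 ± 0.08 higher (1.44-fold, adjusted p = 0.00112), Psmc3 0.39 ± 0.09 (adjusted p = 0.00864) and Psmb6 0.36 ± 0.08 (adjusted p = 0.00983, limma). Psmb7 differed by 0.16 ± 0.08 (limma adjusted p = 0.22). Psma1 was 1.02 ± 0.26 higher on the probe set with the largest spread, where the RWV arrays ran from 0.37 to 1.45, and 0.23 ± 0.10 on another (limma adjusted p = 0.019 and 0.17), so its size is uncertain. Psmd8 was lower by -0.28 ± 0.08 (limma adjusted p = 0.0313), and 0.19 ± 0.11 above TCD with reference centring.

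**Figure D4:**
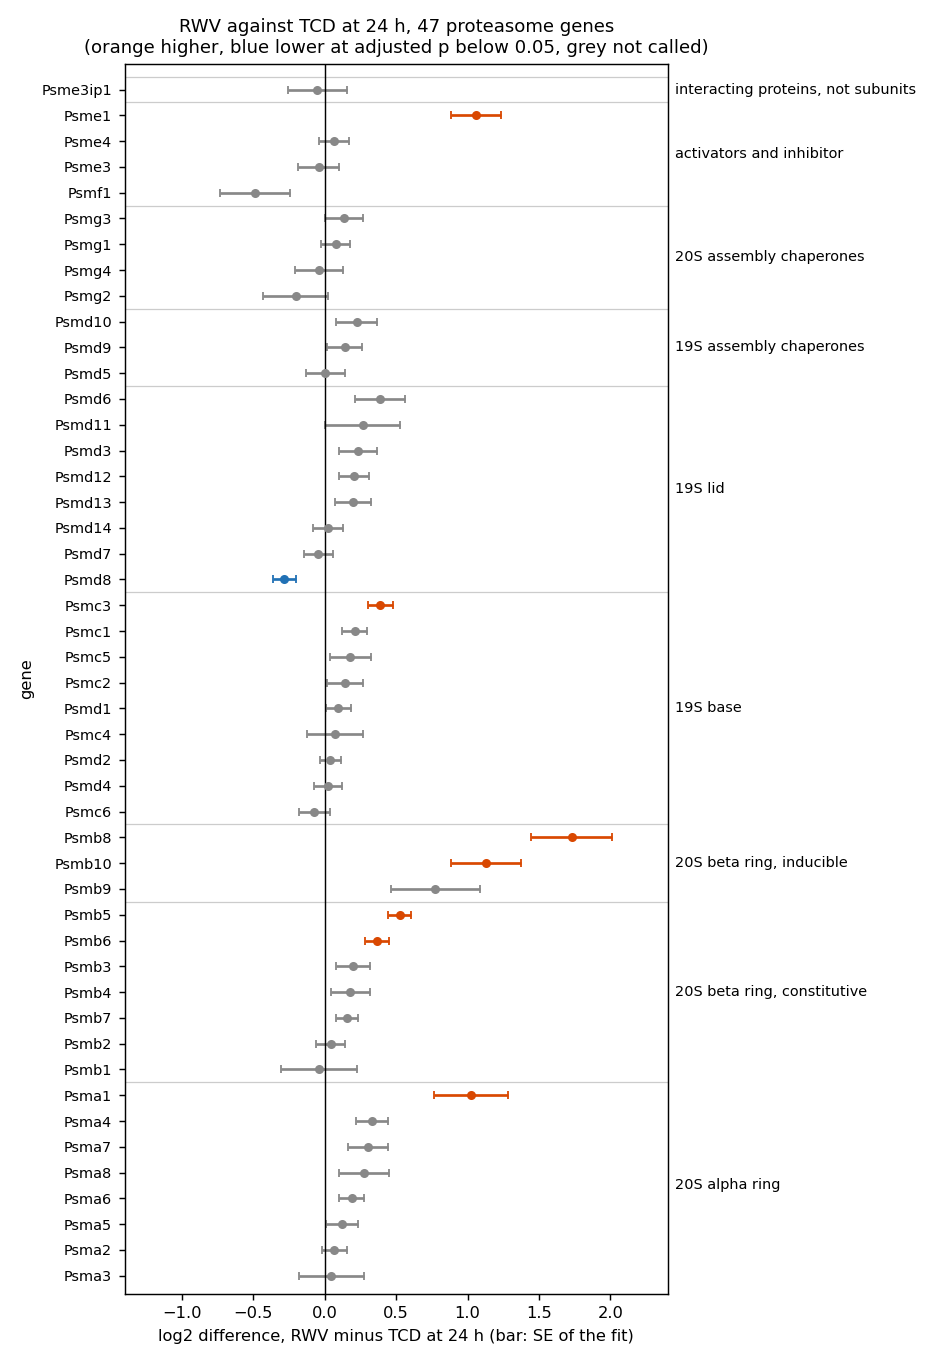
Log2 difference between RWV and TCD at 24 h (horizontal axis) with the standard error of the fit for the 47 tested proteasome genes, by class. Orange points were called higher and the blue point, Psmd8, lower, as deposited. Psmb8 at 1.73, Psmb10 at 1.13, Psme1 at 1.06 and Psma1 at 1.02 lie farthest right. The other probe set of Psmb8, not shown, barely differed between the vessels.

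At 4 h only Psmg3, a chaperone of core assembly, was called between the vessels, 1 higher and 0 lower of 47, where 5.5% of all genes were higher and 0.668% lower. It read -0.50, -0.89 and -0.30 in TCD at 4 h and 0.21, 0.20 and 0.31 in RWV, against -0.01, 0.00 and 0.03 in fresh cells. The TCD arrays lay below the fresh ones and the RWV arrays above, a difference of 0.80 ± 0.13 (1.75-fold, limma adjusted p = 0.00533). The call was lost in a fit of the groups compared alone (adjusted p = 0.119). The inducible subunits differed by -0.26 ± 0.29 (Psmb8), -0.21 ± 0.31 (Psmb9) and -0.04 ± 0.25 (Psmb10) at this time. The interaction, the difference between vessels at 24 h minus that at 4 h, was called higher for 4 members and lower for 2, where 4.93% of all genes were higher and 7.73% lower, and for 34 and 0 with reference centring (41.8% and 3.28% of all genes). It was 1.99 ± 0.40 for Psmb8, 1.11 ± 0.25 for Psme1, 1.17 ± 0.35 for Psmb10, 0.43 ± 0.12 for Psmc3, -0.67 ± 0.19 for Psmg3 and -1.18 ± 0.34 for Psmf1 (limma adjusted p = 0.0083, 0.0127, 0.0467, 0.0367, 0.0375 and 0.0435). Those of Psmb10, Psmc3, Psmg3 and Psmf1 were lost when single arrays were left out, 2 calls being left without replicate 2 of RWV at 4 h.

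Between 4 h and 24 h in the same vessel the cap rose almost as a whole with the values as deposited. In TCD 33 members rose and 5 fell (36.1% and 19.5% of all genes), with 16 of 17 cap genes and 8 of 15 constitutive core genes among those that rose and all 3 inducible subunits and Psme1 among those that fell. In RWV 33 rose and 2 fell (26.4% and 15.1% of all genes), with all 17 cap genes and 10 of 15 core genes rising, and Psmb9 (-1.69 ± 0.31) and Psmd9 falling. With reference centring the counts were 5 and 27 in TCD (12.8% and 60.4% of all genes) and 18 and 3 in RWV (16% and 37.4%). Relative to all genes the cap median rose by 0.65 and 0.77 and the core median by 0.24 and 0.48 in TCD and RWV.

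For 22 members more than 1 probe set passed the filter, which left 35 other probe sets. Against fresh cells these gave 11 higher and 5 lower in TCD at 24 h, where 32.8% of all genes tested were higher and 23.4% lower. In RWV at 24 h they gave 17 higher and 4 lower (30.7% and 19.2% of all genes). Psmc6 was called in opposite directions by its probe sets, higher by 0.92 on the 1 used and lower by 1.17 and 0.92 on the others in TCD at 24 h, so its direction is uncertain. For Psmd11, 2 of 5 other probe sets were also higher in TCD at 24 h, by 0.82 and 0.86, and 3 were not called, at -0.005, 0.003 and 0.14. Psme4 had probe sets called in opposite directions between 4 h and 24 h in TCD. In RWV at 24 h against fresh cells 1 of the 22 members had probe sets called in opposite directions. The second probe set of Psmb8, of shared sequence, fell from fresh cells by 0.42 ± 0.12 in TCD and by 0.40 ± 0.12 in RWV but differed by only 0.02 ± 0.12 between vessels at 24 h. The difference of Psmb8 between vessels therefore rests on 1 of its 2 probe sets, and the size of its fall depends on the probe set. For Psmf1, 1 of 3 other probe sets was also called in the interaction (-1.09 ± 0.29). Psmb5, Psmb6, Psmb7, Psmb9, Psmb10, Psme1, Psmc3, Psmd5 and Psmd8 rest on a single probe set.

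Among 15 tested proteasome-associated factors, 11 rose and 0 fell in TCD at 24 h and 12 rose and 0 fell in RWV at 24 h against fresh cells (limma, as deposited), where 32.8% of all genes rose and 23.4% fell in TCD and 30.7% and 19.2% did in RWV. With reference centring 2 rose and 5 fell in TCD (11.2% and 68.9% of all genes) and 2 rose and 2 fell in RWV (13.7% and 56.3%). Zfand2a, a stress-induced partner of the cap, rose by 5.35 ± 0.24 and 3.96 ± 0.24 and Zfand5, which stimulates the proteasome, by 2.05 ± 0.22 and 1.35 ± 0.22. Both kept these directions and calls with reference centring. Usp14, a deubiquitinase of the cap, rose by 1.13 ± 0.15 and 0.93 ± 0.15, which centring brought to -0.09 and 0.19. Between the vessels at 24 h, 1 was higher in RWV, Pomp, the maturation factor of the core (0.34 ± 0.07), and 4 were lower: Zfand2a (-1.39 ± 0.24), Ubqln2, Fbxo7 and Txnl1, where 8.36% of all genes were higher and 6.86% lower. With reference centring 3 were higher and 1, Zfand2a, was lower (48.9% and 3.32% of all genes). Akirin2, which imports proteasomes into the nucleus, was 0.72 ± 0.15 higher in RWV at 4 h, and 0.54 ± 0.12 without replicate 2 of TCD at 4 h.

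Nfe2l1 itself read -0.94, -2.20 and -0.57 in TCD at 4 h, 0.30, -0.16 and 0.32 in RWV at 4 h, 1.27, 0.73 and 1.22 in TCD at 24 h and 0.43, 0.62 and 1.18 in RWV at 24 h, against 0.00, 0.32 and -0.14 in fresh cells. The lowest value came from the array whose hybridisation controls stood apart. It fell in TCD at 4 h (-1.30 ± 0.36), was higher in RWV than in TCD at 4 h (1.39 ± 0.36) and rose in TCD at 24 h (1.01 ± 0.36; limma adjusted p = 0.0184, 0.0398 and 0.0279). Without that array the fall was -0.82 ± 0.26 and the difference between vessels at 4 h was 0.91 ± 0.26, no longer called (limma adjusted p = 0.04 and 0.0824), and with reference centring the value of TCD at 24 h was -0.20. Of the 12 tested genes of its pathway 5 rose and 5 fell against fresh cells in each vessel at 24 h, as deposited (32.8% and 23.4% of all genes in TCD, 30.7% and 19.2% in RWV), with the small MAF partners Maff, Mafg and Mafk rising and the ER-degradation genes Derl1, Derl2, Sel1l and Syvn1 falling. Vcp, the ATPase that pulls NRF1 from the ER, was 1.20 ± 0.23 higher and Ngly1, which removes its sugars, 0.38 ± 0.09 higher in RWV than in TCD at 24 h. With reference centring the pathway counts were 2 higher and 8 lower in TCD (11.2% and 68.9% of all genes) and 3 higher and 6 lower in RWV (13.7% and 56.3%). Of 6 listed ubiquitin and E1 genes only Uba6, an E1 enzyme, was tested, and it rose by 2.50 ± 0.29 in TCD and 1.89 ± 0.29 in RWV at 24 h.

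Of 12 tested genes of MHC class I antigen processing, 1 rose and 7 fell in TCD at 24 h (32.8% and 23.4% of all genes) and 2 rose and 5 fell in RWV at 24 h (30.7% and 19.2%). With reference centring these were 0 and 11 in TCD (11.2% and 68.9% of all genes) and 1 and 8 in RWV (13.7% and 56.3%). Between the vessels at 24 h 3 were higher in RWV and 0 lower (8.36% and 6.86% of all genes), or 6 and 0 with reference centring (48.9% and 3.32%). Erap1, which trims the peptides in the ER, read -1.51, -2.18 and -1.90 in TCD at 24 h and -0.77, -0.66 and -0.62 in RWV, a difference of 1.18 ± 0.18 (limma adjusted p = 0.00085). Tap2, a subunit of the peptide transporter, was 1.05 ± 0.19 higher, and Tapbpl, a peptide editor, 0.73 ± 0.14 higher (adjusted p = 0.00306 and 0.00374, limma). B2m and H2-K1, the light chain and a heavy chain of class I, fell in both vessels at 24 h, and H2-D1 rose in both, except that with reference centring H2-D1 in TCD was at -0.12.

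Of 12 tested genes of the interferon-gamma response, 4 rose in TCD at 4 h and 6 in RWV at 4 h, where 9.54% and 15.1% of all genes rose. At 24 h 3 rose and 4 fell in TCD (32.8% and 23.4% of all genes) and 2 rose and 3 fell in RWV (30.7% and 19.2%). With reference centring 2 rose and 7 fell in each vessel at 24 h, where 11.2% and 68.9% of all genes did in TCD and 13.7% and 56.3% in RWV. Cxcl9, a chemokine, was 5.26 ± 0.58 and 5.21 ± 0.58 above fresh cells at 4 h in TCD and RWV, and 4.28 ± 0.58 and 3.54 ± 0.58 at 24 h. The GTPase Iigp1 fell by 2.66 ± 0.36 in TCD at 24 h and was 1.67 ± 0.36 higher in RWV (limma adjusted p = 4.33e-05 and 0.00828), the only gene of this list called between vessels at 24 h with the values as deposited. Ifngr1, the ligand-binding chain of the receptor, rose in all 4 cultured groups, by 1.58 to 2.89. None of the 9 tested genes of ubiquitin ligases and autophagy was called between the vessels at 24 h with the values as deposited, and 5 were higher in RWV with reference centring, where 48.9% of all genes were.

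Markers of other liver cells differed among the arrays at 24 h. The median over 11 of 12 listed Kupffer cell and macrophage markers was 3.07, -0.02 and 1.55 in replicates 1, 2 and 3 of RWV at 24 h and between -0.02 and 0.65 in TCD at 24 h. None was called higher in RWV than in TCD at 24 h, but 10 of the 11 differences were above 0, with a median of 0.69 and with Cd5l at 1.68 ± 0.59, Marco at 1.64 ± 0.55 and Vsig4 at 1.23 ± 0.63. Cd68 was lower (-1.21 ± 0.16), where 8.36% of all genes were higher and 6.86% lower. Reference centring made the calls between the vessels 4 higher and 1 lower, where 48.9% of all genes were higher and 3.32% lower. Against fresh cells 6 were called higher in RWV (30.7% of all genes), or 2 with reference centring (13.7%). Cd68 read between 6.89 and 10.2 on all 12 cultured arrays, while Clec4f and Adgre1, of the same list, were not called in either vessel at 24 h. Within RWV at 24 h Psmb8, Psmb10 and Psme1 were lowest in replicate 1, where the macrophage median was highest. Without that array their differences between the vessels were 1.87, 1.33 and 1.13, against 1.73, 1.13 and 1.06 with it, and those of Erap1, Tap2 and Tapbpl were 1.22, 1.19 and 0.83. The part of macrophage RNA in these values and in the differences between the vessels was not tested, on replicate 1 or on any other array. Of the leukocyte list 3 of 12 genes passed the filter and none was called between the vessels at 24 h, with the list median between -0.08 and -0.04 in TCD and between -0.05 and 0.16 in RWV. Of 5 endothelial markers Stab2 was lower in RWV than in TCD at 24 h (-2.36 ± 0.31), of 5 stellate markers Reln (-4.95 ± 0.42) and of 4 cholangiocyte markers 3. None was higher, where 6.86% of all genes were lower and 8.36% higher. Against fresh cells all 4 cholangiocyte markers rose in TCD at 24 h, as deposited (median 4.45). There 1 stellate marker rose (5.53), and 1 endothelial marker rose and 1 fell (32.8% and 23.4% of all genes). In RWV 2 cholangiocyte markers rose and 2 endothelial markers fell (30.7% and 19.2%). The part of these markers in the proteasome values was not tested. Of 9 hepatocyte markers 8 fell in TCD and 7 in RWV at 24 h against fresh cells, where 23.4% and 19.2% of all genes fell. With reference centring all 9 fell in each, where 68.9% and 56.3% of all genes did. Between the vessels at 24 h Hnf4a was higher in RWV (1.37 ± 0.23), and Cps1 (-1.55 ± 0.35) and Cyp2e1 (-0.41 ± 0.09) were lower (8.36% and 6.86% of all genes). The median of the 9 was -0.16, or 0.31 with 5 higher and 1 lower under reference centring (48.9% and 3.32% of all genes).

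**Figure D5:**
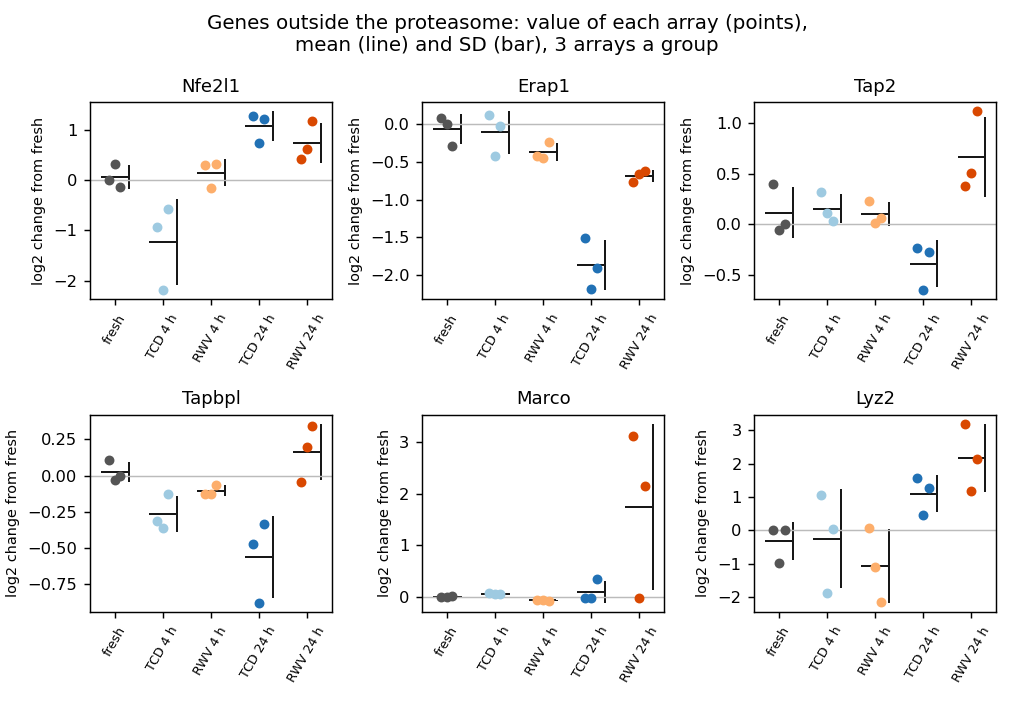
Log2 change from fresh (vertical axis) of Nfe2l1, of the antigen-processing genes Erap1, Tap2 and Tapbpl and of the macrophage markers Marco and Lyz2; points are arrays, lines group means, bars the SD of 3 arrays. In RWV at 24 h Marco reads 3.12, -0.02 and 2.14, and Erap1 lies between -0.77 and -0.62. The part of macrophage RNA was not tested.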

How the data were processed

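RNA of 15 hepatocyte samples was hybridised to Affymetrix arrays. The deposited values are log2 expression summarised with GCRMA by the authors, per the submitters' processing notes. The deposited log2 table had a fresh median of 0 for all 45101 probe sets (tolerance 1e-06), so levels are lost. The log base follows from GCRMA.

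Of 34945 probe sets with 1 symbol, 12849 were set aside as background (correlation above 0.8 with the median profile of the 20% of probe sets that varied least, SD below 0.5). The probe set with the largest SD stood for each gene. limma 3.58.1 (R 4.3.3) fitted all 15 arrays together without trend, with 10 residual degrees of freedom and Benjamini-Hochberg adjustment over 12423 genes, in 9 comparisons. p-values measure the spread between 3 arrays a group, and that number limits the precision. The test was checked on simulated data.

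Members and lists were chosen with earlier results of these data known. Named by rule were the members called between vessels (at most 6 a comparison), the exchanged subunits and the largest change per class. For some of these only part of the arrays is printed. Other members were named after their values were seen. Alternatives were the filter, probe set choice, centring, weights, a replicate block and leaving out arrays. Promoters are from RefSeq (GRCm38.p6). The numbers of same-numbered arrays are not explained in the labels, and every one of the 15 arrays was closest to an array of its own number, but only 5 of 10 group pairs had all correlations above 0.1.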

Additional observations from a re-analysis of the deposited data

Results flagged for a closer look

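In 6 proteasome genes the difference between RWV and TCD at 24 h differed from that at 4 h by the test of the interaction. On the log2 scale it was larger at 24 h by 1.99 for Psmb8, by 1.17 for Psmb10 and by 1.11 for Psme1, and by 0.43 for the ATPase Psmc3. The Psmb8 value is from 1 of its 2 probe sets, and the other barely differed between the vessels at 24 h. As deposited the interaction was -0.67 for the assembly chaperone Psmg3, whose vessels differed at 4 h and not detectably at 24 h. For the inhibitor Psmf1 it was -1.18, and its order turned between the times without a call between vessels at either. With reference centring neither interaction was called, and Psmg3 was higher in RWV at 24 h. Psmf1 was then at -0.82 in TCD and -0.84 in RWV at 24 h against fresh cells. The calls of Psmb10, Psmc3, Psmg3 and Psmf1 were lost when single arrays were left out.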

How the results depend on the processing

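The 24 h calls against fresh cells varied little in number with the filter, the probe set choice, weights and single arrays: 26 to 28 members in TCD and 32 to 34 in RWV with 1 array left out. Leaving out 1 array gave 36 to 39 calls for TCD at 24 h against 4 h, 33 to 35 for RWV, 6 to 8 between vessels at 24 h, 1 to 3 at 4 h, 2 to 7 for the interaction, 7 to 12 for TCD at 4 h against fresh cells and 7 to 12 for RWV. The interaction fell to 2 without RWV 24 h replicate 3, RWV 4 h replicate 2 or TCD 24 h replicates 2 or 3, and to 3 without RWV 24 h replicate 2. RWV at 4 h against fresh cells fell to 7 or 8 without fresh replicate 1 or 3 or any RWV 4 h array, and 4 h between vessels rose to 3 without TCD replicate 1 and 2 without replicate 3. Reference centring gave 40 calls between vessels at 24 h, 2 at 4 h, 34 for the interaction, 26 and 33 for TCD and RWV at 4 h against fresh cells and 21 for RWV at 24 h against 4 h. The 4 h comparison had 3 calls with array weights, 2 with probe set means, 8 with no filter and 0 (6 at an unadjusted p under 0.05, limma) with the groups compared alone, which gave 2 for TCD at 4 h. The interaction had 13 with weights and 10 with no filter. Reference centring turned Psma2 (-0.64 in TCD, -0.094 in RWV at 24 h), Psmb5 (-0.58 in TCD), Psmb6 (-1.04, -0.21), Psmb7 (-1.12, -0.49), Psmb10 (-0.68 in RWV), Psmd4 (-0.27 in TCD) and Psme3 (-0.21 in TCD). For the named genes 523 values kept direction and side of the threshold, 45 lost the call, 4 gained it and 10 reversed, these last all under centring. The cause was not tested.

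With the replicate block the counts were 9 between vessels at 24 h, 1 at 4 h, 6 for the interaction, 10 and 13 for TCD and RWV at 4 h, 30 and 35 at 24 h, and 38 and 37 for 24 h against 4 h. The block changed no call of a named gene and no count by over 1.5 times. The labels do not say that the numbers pair the samples.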
